A study of Mus musculus with 3 samples.

Results

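The genes described are the splicing factor genes of the SR, hnRNP and SF3 families in mouse T-helper 1 cells. They were chosen by name alone, as protein-coding genes whose symbol starts with Srsf, Hnrnp, Sf3a or Sf3b and, for all but the hnRNP genes, goes on with a number. The rule found 40 of the 50600 genes in the deposited tables, or 40 of 21764 protein-coding genes, made up of 11 SR, 20 hnRNP and 9 SF3 genes. The pattern also fits 2 processed pseudogenes, Hnrnpa1l2-ps with 0 counts in each library and Hnrnpa1l2-ps2 with 1, 0 and 0 counts in replicates 1, 2 and 3, which were left out as noncoding.

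The cells were primary T-helper 1 cells from C57BL/6NJ mice, sampled as 3 biological replicates of 1 group. Each replicate has a biosample record of its own, and all name the same donor record. The labels name a protocol for differentiating CD4 T cells, and state neither age nor sex. There was no other condition, so no test between groups was possible, and every level is set against the SD over the 3 libraries. That SD measures the spread between these samples. The labels give total RNA as the molecule, while the library protocol they cite is named for poly(A) RNA.

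SR proteins bind exons through RNA recognition motifs and recruit the spliceosome through a domain rich in arginine and serine. The hnRNP proteins coat new transcripts, and many of them act against SR proteins by keeping exons out of the mature mRNA. SF3a and SF3b are protein complexes of the U2 snRNP, the particle that holds the intron's branch point, and Sf3b1 grips the paired branch site itself. In T cells the best known member is Hnrnpll, which silences the variable exons of Ptprc, the gene of the surface phosphatase CD45, upon activation.

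The counts per library summed to 4764598, 2568928 and 2815439 in replicates 1, 2 and 3, of which protein-coding genes held 79.9%, 77.3% and 68.1%. Of 9 T cell markers, 9 reached a level of 1 TPM (the count per kilobase of exon as a share of all such values in the library) in every library, whereas 3 of 21 markers of other cells did so and 14 of the 21 had 0 counts in every library. The 3 were Csf1r, which has opposite-strand exons, Cd68 and Cd8b1, at means of 124, 2.59 and 17.4 TPM. Csf1r had 121, 112 and 137 TPM in replicates 1, 2 and 3. Its mean lay above those of Cd3d, Cd2, Cd3g and Cd3e and below those of the other T cell markers. The B cell marker Cd79a, not detected, had 27, 0 and 17 counts. Few reads were assigned to the T-helper 1 defining genes, with 2, 10 and 2 counts of Tbx21 (T-bet) and 1, 0 and 0 counts of Ifng in replicates 1, 2 and 3. Because the fit of the strand setting was not tested, these counts need not reflect the mRNA level of either gene. The same doubt holds for the markers. As a set they go with a T cell identity, apart from the 3 detected markers of other cells, while the helper subset rests on the labels. Genes with exons overlapped by exons of the other strand held 56.1%, 60.3% and 71.6% of all counts in replicates 1, 2 and 3. Counting used strand setting 1, and the kit is not given in the sources used here. As a measure of strand, the length-scaled count of mt-Nd6, which lies on the strand opposite to most mitochondrial genes, was 6.40-fold that of mt-Co1 in replicate 1, 10.3-fold in replicate 2 and 24.5-fold in replicate 3. Whether strand setting 1 matched the library was not tested. Were it reversed, reads of a gene's own mRNA would be missing from its count. Every count and level in this report, markers included, is that of reads assigned to the gene under that setting.

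The promoters of the families are shown first, because motif content is a property that the choice by name did not use. RefSeq (GRCm38.p6) gave a promoter for 36 of the 40 genes, and the 250 bases before the start were read. The windows below are those of the highest SR member, the highest SF3 member and the highest pair of hnRNP members, by mean TPM, whose window meets no annotated exon on either strand. They run 5′ to 3′ on the gene's strand, and capitals mark matches to the motifs searched.
Srsf6, chr2:162931258-162931507, plus strand: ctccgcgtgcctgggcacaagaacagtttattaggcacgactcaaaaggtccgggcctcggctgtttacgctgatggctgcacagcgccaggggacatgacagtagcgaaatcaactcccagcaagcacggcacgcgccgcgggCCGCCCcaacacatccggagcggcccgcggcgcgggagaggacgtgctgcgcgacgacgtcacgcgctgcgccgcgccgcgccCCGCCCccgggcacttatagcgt
Hnrnpab, chr11:51606882-51607131, minus strand: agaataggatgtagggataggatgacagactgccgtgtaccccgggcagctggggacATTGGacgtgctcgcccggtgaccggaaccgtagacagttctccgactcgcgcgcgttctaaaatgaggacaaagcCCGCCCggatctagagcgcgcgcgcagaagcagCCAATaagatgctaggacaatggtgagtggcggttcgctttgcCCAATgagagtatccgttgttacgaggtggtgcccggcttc
Hnrnpa1, chr15:103240147-103240396, plus strand: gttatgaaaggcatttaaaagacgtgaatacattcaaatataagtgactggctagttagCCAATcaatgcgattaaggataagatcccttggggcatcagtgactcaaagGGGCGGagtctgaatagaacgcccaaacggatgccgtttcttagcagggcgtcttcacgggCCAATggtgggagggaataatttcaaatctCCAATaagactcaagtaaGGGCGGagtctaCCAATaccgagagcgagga
Sf3b2, chr19:5295458-5295707, minus strand: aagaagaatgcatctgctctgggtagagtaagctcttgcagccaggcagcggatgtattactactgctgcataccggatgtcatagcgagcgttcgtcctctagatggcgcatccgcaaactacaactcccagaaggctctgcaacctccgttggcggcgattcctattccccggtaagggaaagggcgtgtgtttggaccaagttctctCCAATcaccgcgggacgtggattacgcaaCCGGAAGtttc
In Hnrnpa1 the capitals mark 4 CCAAT boxes and 2 GC boxes, in Hnrnpab 3 CCAAT boxes and 1 GC box, in Srsf6 2 GC boxes, and in Sf3b2 1 CCAAT box and 1 ETS site.

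The 3 families differed in which motifs their windows held. Both strands were searched, and in 1 window of the 36 matches of different motifs overlapped. Only 1 SF3 window (that of Sf3b2), 3 SR windows and 8 hnRNP windows met no annotated exon. The shares below therefore include windows that hold exon bases on one strand or the other. The ETS site (CCGGAAG), the core bound by ETS transcription factors, was in 6 of 7 SF3 windows, 4 of 11 SR windows and 2 of 18 hnRNP windows, against 9.15% of 17492 coding promoters of the same length. The CCAAT box (CCAAT), bound by NF-Y, was in 12 of 18 hnRNP windows, 3 of 11 SR windows and 2 of 7 SF3 windows, against 36.5% of coding promoters. The GC box (GGGCGG), bound by Sp1, was in 10 of 11 SR windows, 13 of 18 hnRNP windows and 4 of 7 SF3 windows, against 42.7%. Over the 36 windows together the shares were 33.3% for the ETS site, 47.2% for the CCAAT box and 75% for the GC box. These windows were also rich in CpG, with a median of 22.5 CpG and 62.6% G and C, against 10 CpG and 55.2% over coding promoters. Base composition was not matched in these shares, its part in them was not tested, and no test of the shares was made. The other motifs were in few of these windows. The TATA box (TATAAA) was in 11.1% of the windows against 12.4%, the E-box (CACGTG) in 5.56% against 6.65%, the YY1 site (AAGATGG) in 2.78% against 4.08%, and the cAMP response element (TGACGTCA) in 0 of 36 against 1.98%. A match says that the letters are present, not that a factor was bound.

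The splicing factor genes were nearly all detected and most stood among the highest protein-coding genes. With detection set at 1 TPM in every library, 39 of 40 members were detected, against 39.8% of all protein-coding genes. At 1 TPM a gene had 2.25 counts per kilobase in replicate 1, 1.28 in replicate 2 and 1.59 in replicate 3. The median member stood at percentile 96.2, 96.1 and 95.6 of coding genes in replicates 1, 2 and 3. It had 114, 100.1 and 66.4 TPM, against 13.6, 12.0 and 7.81 TPM for the 9932 coding genes with a mean of at least 1 TPM. The members together took 71630, 34264 and 28630 counts, or 1.28% ± 0.247 of all counts (SD, n = 3). In bulk RNA, fewer expressing cells and less RNA per cell cannot be told apart.

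The families were ordered hnRNP, SR, SF3 by their median in TPM. The hnRNP median was 165, 130 and 95.0 TPM in replicates 1, 2 and 3 (130 ± 34.8; SD, n = 3). The SR median was 111, 97.9 and 78.3 TPM (95.8 ± 16.6) and the SF3 median 63.9, 65.1 and 35.0 TPM (54.7 ± 17.0). Within each library hnRNP stood above SR and SR above SF3. Over the libraries the ranges of hnRNP and SR overlap, and those of SR and SF3 do not. The difference in median log2(TPM + 1) was 0.40 ± 0.13 for hnRNP minus SR, 1.23 ± 0.22 for hnRNP minus SF3 and -0.84 ± 0.28 for SF3 minus SR, each with 1 sign in 3 of 3 libraries. The SF3 minus SR difference rests on length scaling and on the use of medians, since it was -0.15 in CPM (counts scaled by library total alone) and -0.15 with means in place of medians. Restricted to the 26 clear members, those with no exon inside the body of an opposite-strand gene, it was -0.51, and the hnRNP minus SR difference was 0.95. Among the 14 other members the order of hnRNP and SR was turned in every library. There the 8 hnRNP genes had a median of 118, 112 and 66.4 TPM in replicates 1, 2 and 3, against 207, 165 and 116 TPM for the 3 SR genes. The hnRNP genes took 0.870% ± 0.167 of all counts, the SR genes 0.253% ± 0.0537 and the SF3 genes 0.161% ± 0.0290. Members within a family varied far more than the family medians did, as the next paragraphs show.

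**Figure D1:**
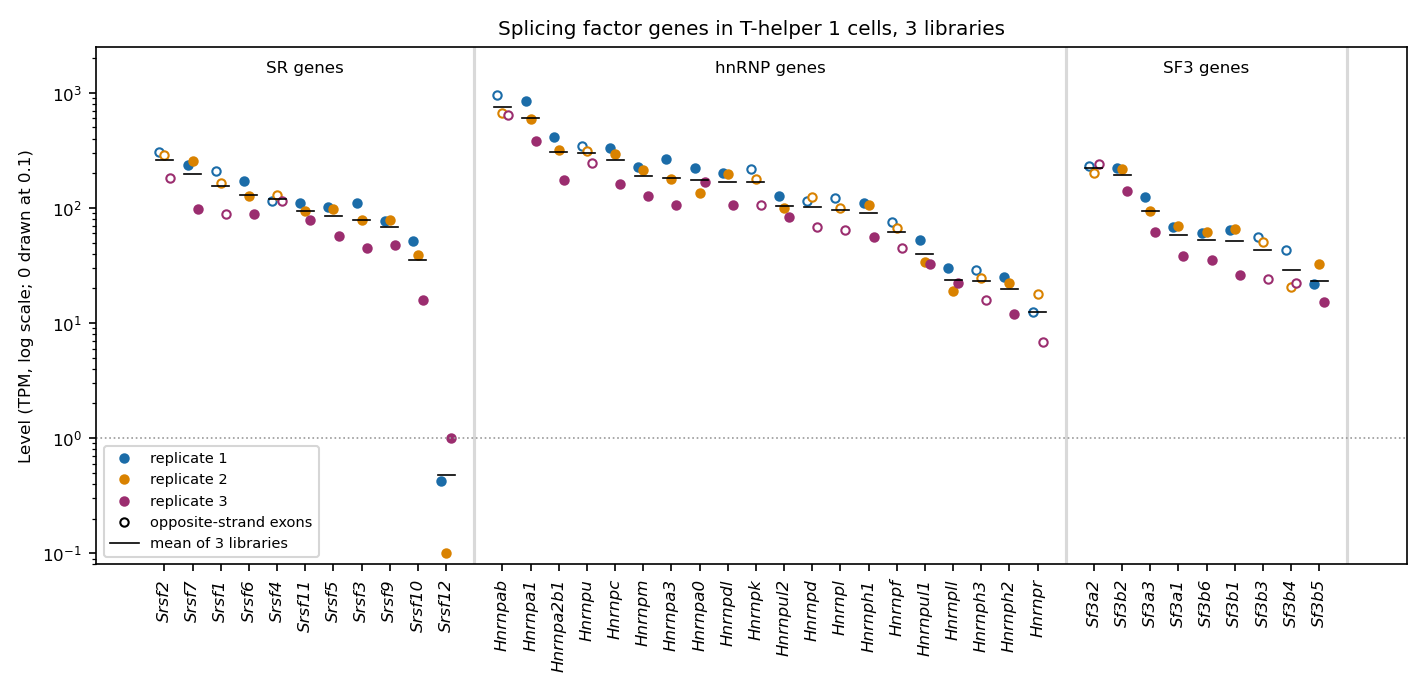
TPM (log scale) of each of the 40 genes by family, with a point per library, a bar at the mean of 3 libraries, and open circles for the 14 genes with opposite-strand exons. Hnrnpab is the highest gene at a mean of 759 TPM, and Srsf12 lies under the dotted line at 1 TPM with 1 library at 0.

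Among the SR genes, 10 of 11 were detected and their mean levels ran from 35.4 to 261 TPM. Srsf2 (SC35), a nuclear speckle protein that binds exonic enhancers, had 309, 291 and 183 TPM in replicates 1, 2 and 3 and was the highest SR gene. It lies on chromosome 11 from 116849901 to 116853094 on the minus strand (mm10), wholly within the body of Mettl23 on the other strand. Srsf7, a small SR protein that also serves mRNA export, had 237, 255 and 98.0 TPM. Srsf1, the SR protein that steers the choice of 5′ splice site, had 207, 165 and 89.1 TPM. Within each library Srsf2 was above Srsf7 and Srsf7 above Srsf1, although their ranges over the libraries overlap.

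The middle of the SR family held Srsf6 (130 ± 42.2 TPM; SD, n = 3), Srsf4 (120 ± 7.98), Srsf11 (94.4 ± 16.5), Srsf5 (85.4 ± 24.3), Srsf3 (78.0 ± 32.7) and Srsf9 (68.0 ± 17.7). Srsf4, Srsf5 and Srsf6 are the longer SR proteins with a pair of RNA recognition motifs, and Srsf5 stood at 0.667 ± 0.0910 of Srsf6 in TPM. Srsf3, a small SR protein like Srsf7, stood at 0.411 ± 0.0895 of it. Srsf1 had 2.21 ± 0.42 times the TPM of its closest relative Srsf9.

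The lowest SR genes were Srsf10 and Srsf12, which are related to each other. Srsf10, a splicing repressor in its dephosphorylated form, had 51.1, 39.0 and 16.0 TPM in replicates 1, 2 and 3. Srsf12 was the single member not detected, with 3, 0 and 5 counts over 3148 exon bases. It lies on chromosome 4 from 33208991 to 33233340 (mm10). Its level was 0.423 TPM in replicate 1 and 0.999 TPM in replicate 3, and the count of 0 in replicate 2 allows up to 0.747 TPM by counting error alone. Replicate 2 therefore cannot separate a low level of Srsf12 from none. Replicates 1 and 3 held few reads assigned to it, and whether those came from its mRNA was not tested.

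All 20 hnRNP genes were detected, with mean levels from 12.4 to 759 TPM. Hnrnpab, an RNA-binding protein of the A and B type, had 963, 674 and 640 TPM in replicates 1, 2 and 3, the highest of all 40 members. It lies on chromosome 11 from 51600100 to 51606847 on the minus strand (mm10). Hnrnpa1, which silences exons and binds within introns, had 849, 593 and 380 TPM, and none of its exons, on chromosome 15 from 103240432 to 103244955 (mm10), lies in the body of an opposite-strand gene. Hnrnpa2b1, its relative and also a splicing silencer, had 412, 321 and 177 TPM. Hnrnpab stood above Hnrnpa1 in every library, and Hnrnpa1 above Hnrnpa2b1.

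Next in order were Hnrnpu (300 ± 51.8 TPM; SD, n = 3), a nuclear matrix and chromatin protein, Hnrnpc (263 ± 89.6), which binds uridine tracts, Hnrnpm (191 ± 54.7), Hnrnpa3 (184 ± 78.9), Hnrnpa0 (175 ± 43.1), Hnrnpdl (169 ± 53.3) and Hnrnpk (167 ± 56.6). Hnrnpk binds cytosine tracts, and Hnrnpdl is the paralog of the AU-rich element protein Hnrnpd. The means of the last 5 of those genes lie within each other's SD. Between 39.5 and 104 TPM lay Hnrnpul2, Hnrnpd (102 ± 29.5), Hnrnpl (95.3 ± 28.9), Hnrnph1 (90.7 ± 30.6), Hnrnpf (62.3 ± 15.9) and Hnrnpul1.

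The lowest hnRNP genes were Hnrnpll, Hnrnph3, Hnrnph2 and Hnrnpr. Hnrnpll, the CD45 exon silencer, had 30.0, 19.1 and 22.2 TPM in replicates 1, 2 and 3. Hnrnph2, an X-linked binder of guanosine runs, had 25.1, 22.4 and 12.1 TPM. Hnrnpr, an RNA-binding protein related to Syncrip, had 12.5, 17.8 and 6.88 TPM, spread over 22199 exon bases, the longest of the 40. All 4 genes were detected in every library, so low here means low beside other hnRNP genes, with each mean above the median of 11.1 ± 2.99 TPM over coding genes of at least 1 TPM.

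Levels of hnRNP paralogs stood in ratios that held steady over the libraries in several groups. Hnrnpa1 had 2.06, 1.85 and 2.15 times the TPM of Hnrnpa2b1 in replicates 1, 2 and 3, and 3.36 ± 0.19 times that of Hnrnpa3 (SD, n = 3). Hnrnph1 had 4.43, 4.70 and 4.59 times the TPM of Hnrnph2, the ratio of the smallest relative spread. Hnrnpd stood at 0.61 ± 0.04 of Hnrnpdl and Hnrnpul1 at 0.378 ± 0.0351 of Hnrnpul2. By contrast Hnrnpa1 had 3.84, 4.36 and 2.26 times the TPM of Hnrnpa0, and Hnrnpll stood at 0.246, 0.192 and 0.345 of Hnrnpl. A ratio within a library is free of the shift that moves all genes of that library. Genes of these paralog groups resemble each other and some have processed copies elsewhere in the genome, so that reads from near-identical stretches may not be assigned to them. On the same strand, Hnrnpm shares 1169 exon bases, 24.9% of its length, with March2, which had 39, 11 and 22 counts. The level of Hnrnpm, and of Hnrnpa1 for its copies, is uncertain to that extent.

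All 9 SF3 genes were detected, but subunits of the same complexes differed widely in level. In SF3a, Sf3a2 had 230, 199.97 and 241 TPM in replicates 1, 2 and 3, Sf3a3 had 125, 94.0 and 61.2 TPM, and Sf3a1 had 68.3, 69.0 and 38.1 TPM. Sf3a2 was therefore above the other SF3a subunits in every library. In SF3b, Sf3b2 had 223, 219 and 139 TPM and was the highest. Sf3b1, which holds the branch site and lies on chromosome 1 from 54985169 to 55027481 (mm10), had 63.9, 65.1 and 26.4 TPM. Sf3b6, the subunit that touches the branch point adenosine, had 60.3, 61.3 and 35.0 TPM, a range that overlaps that of Sf3b1. Sf3b3 had 55.4, 51.0 and 24.1 TPM, below Sf3b1 in every library, at a log2 ratio of -0.23 ± 0.11. The lowest subunits were Sf3b4, an RNA-binding subunit with 43.5, 20.7 and 22.4 TPM, and the small subunit Sf3b5 with 21.9, 32.7 and 15.2 TPM. These last genes change order between replicates, so that neither can be called the lower.

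The ratio of the highest to the lowest SF3 subunit was 10.5, 10.6 and 15.8 in replicates 1, 2 and 3 (12.3 ± 3.05; SD, n = 3). Among the 6 clear subunits it was 10.2, 6.69 and 9.13 (8.67 ± 1.79). In log2 ratio to Sf3b1, Sf3a2 stood at 2.22 ± 0.85, Sf3b2 at 1.98 ± 0.36, Sf3a3 at 0.90 ± 0.35, Sf3a1 at 0.24 ± 0.25, Sf3b6 at 0.08 ± 0.29, Sf3b4 at -0.82 ± 0.74 and Sf3b5 at -1.11 ± 0.39. Sf3b2 and all 3 SF3a subunits were above Sf3b1 in every library, Sf3a1 by a log2 ratio of only 0.10 and 0.08 in replicates 1 and 2, while Sf3b6 had 1 sign in 2 libraries and the other in 1. Phf5a, the further SF3b component that its symbol places outside the naming rule, had 85.2, 122 and 39.6 TPM, within the range of the subunits named for SF3.

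Several members lie close together on a chromosome. Hnrnpd and Hnrnpdl are 54.6 kb apart on chromosome 5, Hnrnpll and Srsf7 are 138 kb apart on chromosome 17, Hnrnpa0 and Hnrnpk are 263 kb apart on chromosome 13, and Srsf10 and Hnrnpr are 441 kb apart on chromosome 4. Hnrnpd and Hnrnpdl kept a steady ratio, as given above, but so did Hnrnph1 and Hnrnph2, which lie on different chromosomes. Hnrnpll had 23.8 ± 5.63 TPM and its neighbour Srsf7 197 ± 86.0 TPM. Whether closeness on a chromosome goes with a steady ratio was not tested.

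Of the 40 members, 14 have exons that are overlapped by exons of an opposite-strand gene. That share of 35% compares with 22.1% of all coding genes, and the same 14 have an exon inside the body of an opposite gene, against 27.1% of coding genes. Both background shares include coding genes with few or no counts. With a mean of at least 1 TPM, 3704 of 9932 coding genes had an exon inside an opposite body, beside 14 of 39 members. The members were therefore not set apart from expressed coding genes by overlap. The 14 were 3 SR genes (Srsf1, Srsf2, Srsf4), 8 hnRNP genes (Hnrnpab, Hnrnpd, Hnrnpf, Hnrnph3, Hnrnpk, Hnrnpl, Hnrnpr, Hnrnpu) and 3 SF3 genes (Sf3a2, Sf3b3, Sf3b4). In 9 of the 14 the opposite gene with most shared bases had more counts per kilobase than the member in every library, against 41.7% of coding genes with opposite-strand exons. With protein-coding opposite genes only there were 5, Hnrnpab, Hnrnph3, Hnrnpu, Sf3b3 and Srsf2. The other 5 members were Hnrnpk, Hnrnpl, Sf3a2 and Sf3b4, which were above their opposite gene in every library, and Hnrnpr, which was mixed. Reads of the 2 strands can be told apart only as far as the strand setting fits the kit.

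**Figure D2:**
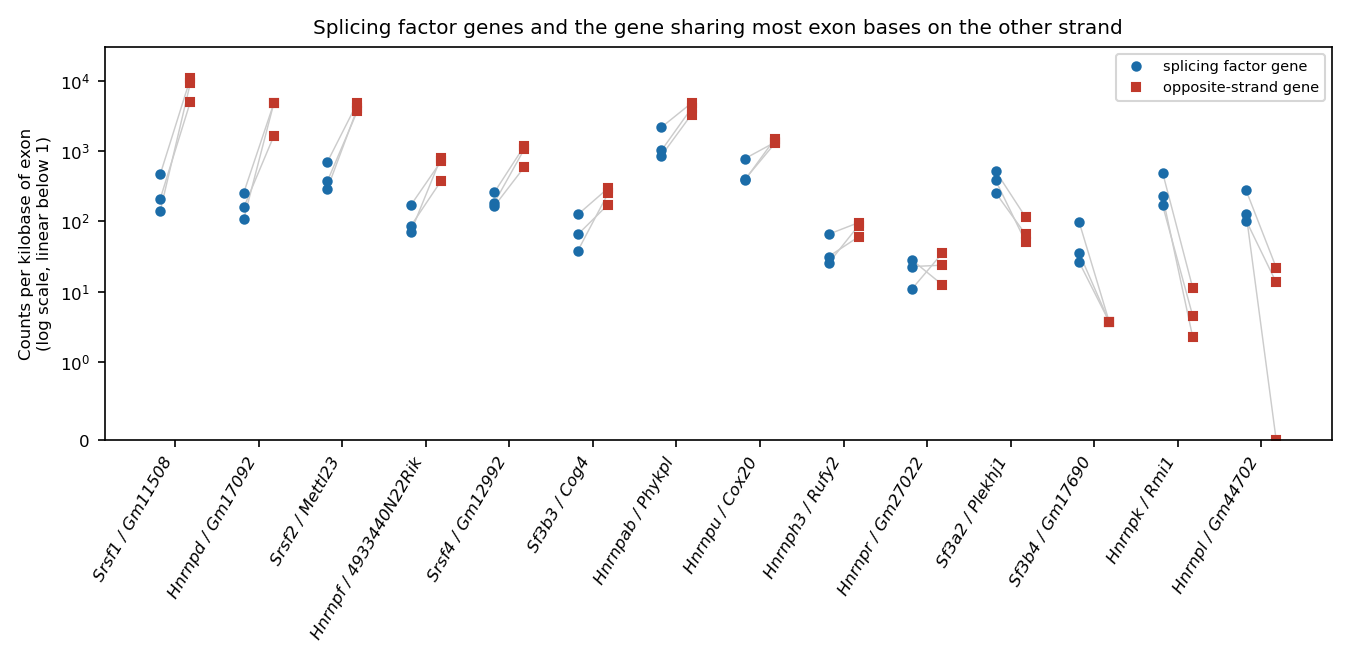
Counts per kilobase of exon (log scale, linear below 1) of the 14 overlapped genes and of the opposite-strand gene sharing most exon bases, with a line per library. For the 9 pairs on the left the red square is above the blue circle in every library, up to 10732 for Gm11508 against 467 for Srsf1 in replicate 1.

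Among the SR genes, the opposite gene was the higher one in all 3 cases. Srsf1 had 467, 210.2 and 142 counts per kilobase in replicates 1, 2 and 3, against 10732, 5000 and 9232 for the antisense gene Gm11508, with which it shares 98 bases at the 5′ ends. The antisense gene is far shorter, with 440 exon bases against 5710 for Srsf1. In counts Srsf1 had 2669, 1200 and 809 and Gm11508 had 4722, 2200 and 4062. Srsf2 had 2058, 1097 and 861 counts, against 13076, 9990 and 10909 for Mettl23, with which it shares 460 bases. A second opposite gene, Mfsd11, shares 288 bases with Srsf2 at the 5′ ends and held 8629, 2542 and 8253 counts. Per kilobase, Mettl23 was above Srsf2 in every library, while Srsf2 was above Mfsd11 in replicate 2, at 371 against 359, and below it in replicates 1 and 3. Srsf4 had 921, 586 and 655 counts, against 6948, 3488 and 6294 for the processed transcript Gm12992, which covers 43.0% of its exon bases at the 3′ end. Srsf4 had the least SD of log2(TPM + 1) of all members, and whether shared bases play a part in that was not tested.

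Among hnRNP genes the largest opposite totals lay at Hnrnpab, whose 6041, 2392 and 2830 counts stood against 46509, 31946 and 39198 for Phykpl (809 bases shared at the 3′ ends). Hnrnpu had 778, 396 and 387 counts per kilobase, against 1328, 1288 and 1496 for Cox20, which shares 804 bases. In raw counts that order is turned, since Hnrnpu had 9026, 4590 and 4485 counts against 1173, 1137 and 1321 for the much shorter Cox20. Hnrnpd had 1886, 1161 and 799 counts, against 3337, 1146 and 3343 for the antisense gene Gm17092, which lies inside it. Hnrnpf had 517, 261 and 216 counts, against 1383, 728 and 1559 for 4933440N22Rik and 3865, 2644 and 3213 for Gm43863, both inside it. Hnrnph3 had 206, 99 and 80 counts, against 776, 488 and 705 for Rufy2. In raw counts each of these opposite genes held most in replicate 1 or 3, and each member held most in replicate 1. Replicate 1 was also the deepest library, so raw counts do not compare levels between replicates. In CPM on TMM library sizes, a scaling described below, Hnrnpab and Hnrnpu were highest in replicate 3, at 1180 and 1871. Hnrnpd was highest in replicate 2, at 427, and Hnrnpf and Hnrnph3 remained highest in replicate 1.

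For the remaining hnRNP genes the opposite gene held few counts. Hnrnpk had 2770, 1272 and 951 counts, against 40, 8 and 16 for Rmi1. Hnrnpl had 1635, 756 and 610 counts, against 13, 0 and 8 for Gm44702. Hnrnpr had 625, 504 and 243 counts, against 9, 17 and 25 for Gm27022, and the genes change order per kilobase, with Hnrnpr at 28.2, 22.7 and 10.9 and Gm27022 at 12.6, 23.8 and 35.0. No opposite gene of these 3 members held more than 40 counts in a library.

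The 3 SF3 genes were split. Sf3a2 lies on chromosome 10 from 80798198 to 80804924 (mm10). It had 1380, 678 and 1018 counts, against 197, 112 and 88 for Plekhj1, with which it shares 429 bases at the 5′ ends. Per kilobase Sf3a2 had 5.33 ± 1.91 times as much as Plekhj1 (SD, n = 3). Sf3b4 had 212, 57 and 77 counts, against 13, 13 and 13 for Gm17690. Sf3b3 had 1365, 711 and 418 counts, against 1193, 699 and 1007 for Cog4, and per kilobase it stood at 0.425, 0.378 and 0.154 of Cog4. Over the families together, the 14 overlapped members had a median of 118, 126 and 78.7 TPM in replicates 1, 2 and 3, against 111, 96.0 and 59.3 TPM for the 26 clear members. The overlapped median was the higher in every library, but by family only the SR genes, with 3 overlapped members, went that way. Overlapped SR genes had a median of 163 ± 45.9 TPM, against 81.5 ± 26.9 TPM for clear SR genes (SD, n = 3). Overlapped hnRNP genes had 98.6 ± 28.1 TPM, against 159 ± 52.3 TPM for clear hnRNP genes. Overlapped SF3 genes had 43.5 ± 17.0 TPM, against 56.6 ± 17.3 TPM for clear SF3 genes. In both families the overlapped median was the lower in every library.

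Most members were lowest in replicate 3 in TPM, and so were most coding genes. Of the 39 members with a mean of at least 1 TPM, 34 were lowest in replicate 3, against 67.5% of coding genes. Among clear members it was 23 of 25, against 74.8% of clear coding genes, and among overlapped members 11 of 14, against 55.3% of overlapped coding genes. Members deviated from their own mean log2(TPM + 1) by a median of 0.35, 0.16 and -0.52 in replicates 1, 2 and 3, beside the 0.32, 0.11 and -0.41 of coding genes. Replicate 3 was also the library with the highest share of counts on genes with opposite-strand exons, 71.6%, and its part in the result was not tested. With CPM on TMM library sizes, a scaling that holds the bulk of genes level, 28 of 39 members were lowest in replicate 3, against 48.6% of the 8128 coding genes that passed the filter.

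Srsf10, Srsf7 and Sf3b1 had the largest SD of log2(TPM + 1), at 0.85, 0.76 and 0.73. Each was lowest in replicate 3, where Srsf10 had 178 counts, against 807 in replicate 1 and 348 in replicate 2. Under TMM scaling the 3 remained lowest there, with 153, 128 and 74.2 CPM for Srsf10, 231, 273 and 148 for Srsf7, and 310, 347 and 199 for Sf3b1. The least SD was that of Srsf4 (0.09) and Sf3a2 (0.14). Under TMM scaling both were instead highest in replicate 3, at 273 CPM for Srsf4 and 425 for Sf3a2, against 174 and 261 in replicate 1. Besides these 2 genes, the detected members not lowest in replicate 3 in TPM were Sf3b4, Hnrnpa0 and Hnrnpll, all 3 lowest in replicate 2.

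**Figure D3:**
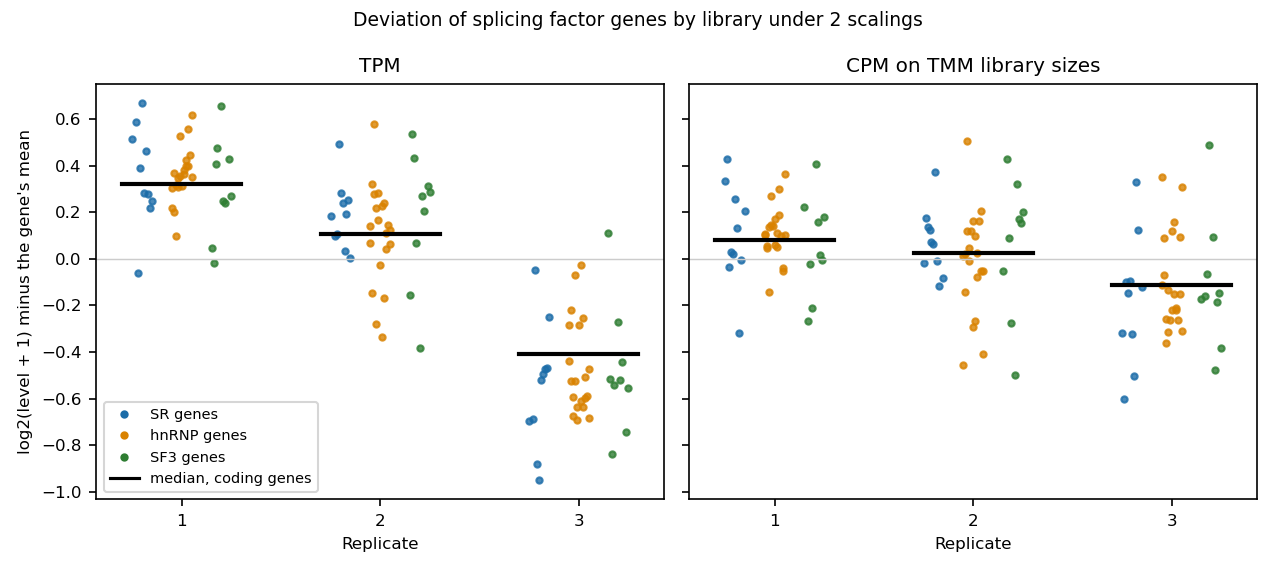
Deviation of each of the 39 genes with a mean of at least 1 TPM from its own mean, on log2(level + 1), by replicate and family, in TPM on the left and in CPM on TMM library sizes on the right. Bars mark the median of coding genes, at -0.41 in replicate 3 in TPM and -0.11 under TMM.

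The spread of the members was close to that of coding genes in TPM and smaller under TMM. The median SD of log2(TPM + 1) was 0.48 over members, against 0.49 over 5314 coding genes with a mean of at least 10 TPM. Under TMM scaling it was 0.23 over the members, against 0.35 over coding genes that passed the filter, which reach to lower levels. Without replicate 3 the members' median SD in TPM was 0.17. The coefficient of variation from the edgeR dispersion fit, which shrinks each gene towards the others, had a median of 0.293 over the members, against 0.308 over all genes fitted. It was 0.182 over the members, against 0.280 over all genes, without replicate 3. Without replicate 2 the order was turned, at 0.349 against 0.307, and without replicate 1 both were 0.336.

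The other parts of the splicing machinery were also detected. Over 8 further lists, 109 of 115 genes were detected, and the 6 others were all in the list of other alternative splicing regulators. The U2AF and branch point list, which hands the 3′ splice site to SF3, had 11 of 11 detected and a median of 83.1 ± 22.4 TPM (SD, n = 3), led by U2af1 at 176 ± 54.8 and U2af2 at 120 ± 28.4. The Sm and LSm proteins, the ring of each snRNP, had 14 of 14 and a median of 77.5 ± 28.8 TPM, led by Snrpd1 (401 ± 140) and Snrpb (180 ± 59.6). Both medians lay between those of the SF3 and hnRNP genes.

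The U1 and U2 snRNP proteins had 10 of 10 detected and a median of 53.6 ± 17.5 TPM, led by Prpf39 (527 ± 103), which has opposite-strand exons, and Snrnp70 (137 ± 8.99). The tri-snRNP and catalytic core had 20 of 20 and 43.8 ± 12.9 TPM, led by Bud31, which has opposite-strand exons, and the core scaffold Prpf8 (121 ± 39.3). The SR-related proteins, which carry the same kind of domain without being SR proteins, had 13 of 13 and 53.6 ± 17.1 TPM, led by Srrm2 and Acin1, both with opposite-strand exons. The kinases and importers that phosphorylate and carry SR proteins had a median below that of the SR genes in each library, at 21.0 ± 3.40 TPM with 8 of 8 detected. The list was led by Prpf4b (103 ± 25.0), which lies within the range of the SR genes, and Srpk1 (31.4 ± 10.5).

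The 17 hnRNP proteins that go by other symbols were all detected, with a median of 61.7 ± 20.6 TPM, led by the cytosine-binding Pcbp1 (378 ± 89.7) and Pcbp2 (187 ± 71.0), which both have opposite-strand exons. Of 22 other alternative splicing regulators 16 were detected, with a median of 6.13 ± 2.62 TPM, led by Sfpq (275 ± 71.0) and its partner Nono (120 ± 33.1). The 6 not detected were Rbfox1, Rbfox2, Rbfox3, Nova1, Nova2 and Esrp1, which are known for neuronal, muscle or epithelial splicing. Other regulators known from such tissues were detected, among them the epithelial Esrp2 with 35.4, 46.4 and 50.7 TPM in replicates 1, 2 and 3, which has opposite-strand exons, and the neuronal Ptbp2 with 4.64, 4.02 and 1.78 TPM. Esrp2 and Ptbp2 were named after their values were seen. Of the 6 not detected, Rbfox1, Nova1 and Esrp1 had 0 counts in every library.

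**Figure D4:**
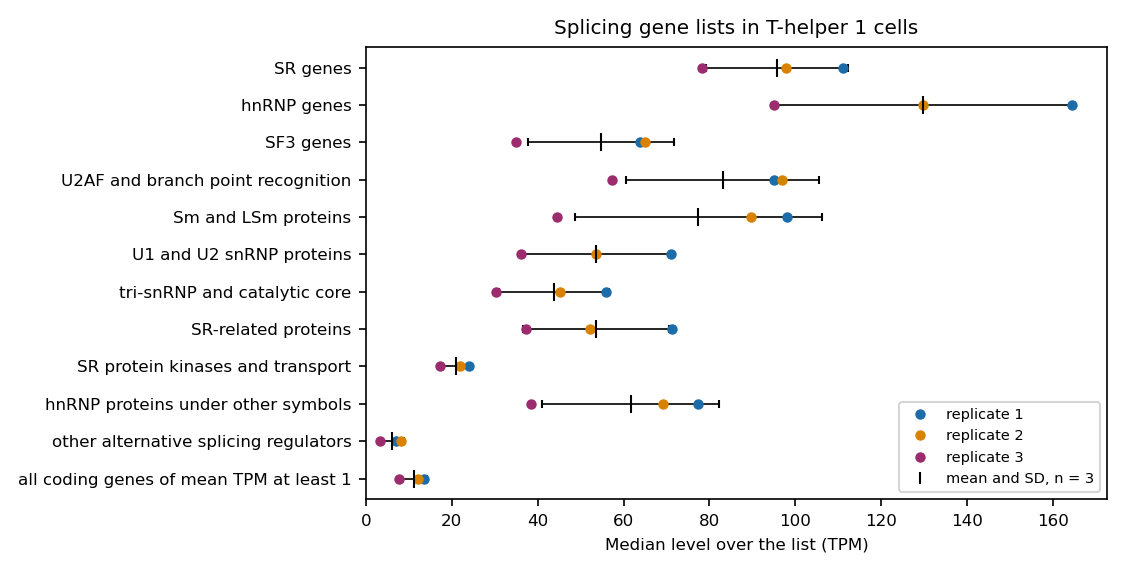
Median TPM of the 3 families, of 8 further splicing lists and of coding genes with a mean of at least 1 TPM, with a point per library and the mean and SD over 3 libraries. The hnRNP genes have the highest median at 130 TPM, and the other regulators the lowest of the splicing lists at 6.13 TPM.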

How the data were processed

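RNA-seq counts of 3 T-helper 1 libraries were used. The deposited values are whole-number read counts per gene, made by the authors with featureCounts v1.4.6-p4, per the file headers. Read pairs were counted in strand mode 1 against GENCODE vM13 exons (mm10). The command names neither the option for multi-mapping reads nor that for reads meeting several genes. The gene length in bases, another quantity deposited beside each count per the file headers, served to compute TPM here. A 16 hr tag stands in the headers but not in the labels. Aligner version and kit: not given in the sources used here.

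Of 50600 identifiers, 50376 were named from GENCODE vM21. Members and lists were chosen with earlier results of these data known. Exon overlaps came from the coordinates in the deposited tables, and promoters from RefSeq (GRCm38.p6). Values in every library are given for the 3 highest and 2 lowest members of each family, every SF3 subunit, every overlapped member with its opposite gene, and the 3 members of largest SD. Of other lists the 2 highest and all undetected genes are named; Phf5a, Tbx21, Ifng, mt-Nd6, mt-Co1 and the members in ratios, neighbours and printed windows fall outside that rule. Log values use a pseudocount of 1. Where a count was 0, up to 3 counts were allowed for, and such floors cover counting error only. Depth per library opens the report.

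With 1 group, nothing was tested between conditions. The edgeR dispersion fit used TMM and filterByExpr with an intercept alone, and was checked on simulated counts. Alternatives were pseudocounts, units, filters, scalings, clear members and each replicate left out; those on the lowest library were added after seeing the data. The tools were edgeR 4.0.16 and DESeq2 1.42.0 in R 4.3.3, and pandas 2.3.3, numpy 2.4.6 and matplotlib 3.10.9 in Python 3.11.15.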

Additional observations from a re-analysis of the deposited data

How the results depend on the processing

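Of 82 alternative values of 13 results, 58 stayed within the SD over libraries or, for counts and measures of spread, within 1.5 times. The other 24 moved further. Some alternatives set a count over clear members against a count over all members, so whether those moved depends in part on set size. Only differences between families could change sign, and 0 did. The turned order of hnRNP and SR genes among overlapped members was not one of these alternatives. No paired analysis was possible because there was 1 group. With TPM recomputed over clear genes alone, whose total is smaller by construction, the medians were 611 TPM for hnRNP, 312 for SR and 218 for SF3 genes, and 25 of the 26 clear members were detected. With the back-transformed mean of log2(TPM + 1) over members in place of the median, the SR level was 70.5 TPM, the undetected Srsf12 included. The hnRNP minus SR difference was 0.74 in CPM, 0.62 with means, 0.95 over clear members and 0.96 in recomputed TPM. In the same order SF3 minus SR was -0.15, -0.15, -0.51 and -0.52, and hnRNP minus SF3 was 0.89, 0.77, 1.47 and 1.48. The cause of these moves was not tested. Opposite genes were above the member in 5 cases with protein-coding opposite genes only and in 6 by raw counts, and 10 members shared at least 100 bases with an opposite gene. The members' median SD was 0.23 under TMM and from 0.17 to 0.58 with each replicate left out, the lowest without replicate 3. Their coefficient of variation was from 0.182 to 0.349 with each replicate left out, and 0.126 by DESeq2's gene-wise dispersion, which does not shrink (0.239 over all genes). The members' share was 1.70% of counts on coding genes and 0.568% of TPM. Depth limits Srsf12, at 5 counts or fewer in each library.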
